A study of Mus musculus with 12 samples.

Results

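The genes described here are 36 genes that mark the endothelium of the liver, taken from a list of named genes: 17 are known from the cells that line the sinusoids and 19 from blood vessels in general. Each was found in the deposited count table by mapping its Ensembl identifiers to mouse symbols. All 36 had counts, out of 54838 identifiers in the table, and all 36 were among the 13861 genes that passed the filter on low counts. They were taken by name and not by a cut-off on values, but the list was chosen with earlier results of these data known. The study sequenced messenger RNA from the liver of C57BL/6J mice exposed to low oxygen, to dexamethasone (DEX) or to both. DEX is a synthetic agonist of the glucocorticoid receptor. Mice were kept at 21% oxygen (normoxia) or at 7% oxygen (hypoxia) for 24 h. Each then received DEX (10 mg/kg into the peritoneum) or PBS, and the hypoxic mice went back to 7% oxygen until the livers were taken 2 h after injection. The groups were normoxia with PBS, normoxia with DEX, hypoxia with PBS and hypoxia with DEX, of 3 libraries each. All groups are of the same strain, with no engineered allele named, and the age of the mice is not stated. No label says that the 3 libraries of a group came from separate mice, so p-values measure the spread between libraries.

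Liver sinusoids are capillaries without a continuous basement membrane, and their endothelial cells carry open pores through which plasma reaches the hepatocytes. Sinusoidal endothelial cells clear waste from the blood through scavenger and lectin receptors such as the stabilins. They also send signals to the hepatocytes, among them Wnt ligands that set the gene programme of the pericentral zone and bone morphogenetic proteins that control iron hormone synthesis. Larger hepatic vessels keep the features of ordinary endothelium, with tight junctions and von Willebrand factor.

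Library totals ran from 12464687 to 24715995 counts. Levels are given as CPM, a count scaled to a common total on library sizes scaled with trimmed mean of M values (TMM), with the SD over the 3 libraries of a group. Changes are log2 fold changes from edgeR with their SE, and a gene is called higher or lower where the Benjamini-Hochberg adjusted p over all 13861 genes is under 0.05. In bulk liver, fewer endothelial cells and less RNA per cell cannot be told apart. Hypoxia with DEX replicates 1 and 3 were closer to each other (1.79 chi-square units per gene) than the other pairs of replicates (10.54 to 38.45), so a call that was lost with these libraries summed is named as such. Replicate 2 of that group differed from these 2 by 14.64 and 15.42, which is within the range of pairs in the other groups. Hypoxia with PBS replicate 1 differed from its group by 38.45 and 21.41, against 12.21 between the rest of that group. Below, these are the libraries that stood apart, the former only beside the close pair.

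Endothelial RNA was present in every library. Per kilobase of exon, the mean level in normoxia with PBS was 23.7 CPM for Clec4g, 23.5 for Plvap, 19.4 for Eng, 15.6 for Ehd3 and 15.2 for Oit3. At the other end stood Vwf, at 0.588 CPM per kilobase, Emcn, at 0.515, Sox17, at 0.431, and Wnt9b, at 0.329. Lyve1, at 3.65 CPM per kilobase in this group, was among the lower sinusoidal genes, whereas after DEX in normoxia it reached 19.2. Stab2 and Clec4g, defining genes of sinusoidal endothelium, and Pecam1 and Cdh5, defining genes of all endothelium, were counted in all 12 libraries. Of 4 lymphatic endothelial markers, Ccl21a had no count in any library, Pdpn was at 0.134 to 0.87 CPM and did not pass the count filter, and Mmrn1 was at 0.0592 to 1.05 CPM with no call. The 4th, Prox1, which hepatocytes also express, was at 78.9 to 245 CPM. Prox1 was lower after DEX, by a log2 change of -0.97 in normoxia (edgeR adjusted p = 0.000253) and -1.16 in hypoxia (edgeR adjusted p = 0.000144).

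The 17 sinusoidal genes summed to 717 to 778 CPM in normoxia with PBS, 809 to 918 in normoxia with DEX, 603 to 649 in hypoxia with PBS and 672 to 687 in hypoxia with DEX. On the TMM scale these ranges did not overlap between any pair of groups. With library size alone the sinusoidal ranges of PBS and DEX overlapped at both oxygen levels, at 748 to 857 against 777 to 896 CPM in normoxia and 579 to 660 against 618 to 646 CPM in hypoxia. Both hypoxic groups were below both normoxic groups on either scale. The 19 general vascular genes summed to 618 to 653, 577 to 638, 546 to 606 and 578 to 610 CPM in the same order. Both hypoxic groups lay below normoxia with PBS in the vascular sum, and the other ranges overlapped. With library size alone the vascular sum was 645 to 718 CPM in normoxia with PBS, above the 570.0 to 623 CPM of normoxia with DEX. Beside the sinusoidal sum, the mean stellate cell and fibroblast sum went from 581 to 690.0 CPM and the mean hepatocyte sum from 128000 to 153000 CPM with DEX in normoxia on the TMM scale. Their part in the sinusoidal sum was not tested. A sum is led by its most abundant genes, and the separate genes below moved in both directions. The difference between the sinusoidal and the vascular sum was not tested.

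**Figure D1:**
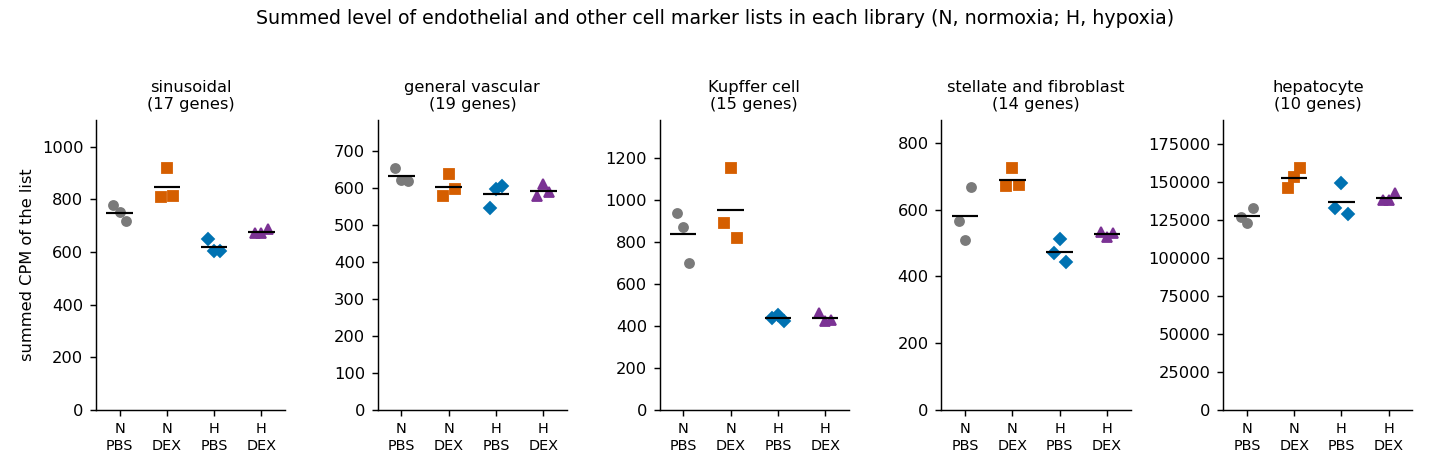
Summed CPM (y axis, linear, from 0) of the sinusoidal, general vascular, Kupffer cell, stellate cell with fibroblast and hepatocyte marker lists in each library, by group (x axis; N normoxia, H hypoxia). Points are libraries and bars are means of 3. On this TMM scale the sinusoidal sum spans 603 to 918 CPM with separate ranges per group (those of PBS and DEX overlap with library size alone), the vascular sum spans 546 to 653, and the Kupffer cell sum is 424 to 462 in all hypoxic libraries against 701 or more in normoxia.

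Hypoxia in PBS mice lowered more of these genes than it raised. Of the 36, 6 were higher and 12 lower, against a background of 18.9% of all tested genes higher and 16.8% lower. Among the 17 sinusoidal genes 3 were higher and 8 lower, with a median log2 fold change of -0.18, and among the 19 vascular genes 3 were higher and 4 lower, with a median of -0.01. Over all 13861 genes, the called shares in the 2 directions were close to each other. The lower genes include scavenger and lectin receptors and the junction gene Cdh5, and the higher genes include Lyve1, Vwf and Nos3.

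Part of the oxygen differences were also called among DEX mice. In hypoxia with DEX against normoxia with DEX, 4 of 36 genes were higher and 8 lower, where 20.7% of all genes were higher and 22.2% lower. These comprised 1 higher and 6 lower of the sinusoidal genes, with a median of -0.19, and 3 higher and 2 lower of the vascular genes, with a median of -0.11. Both oxygen comparisons, which share no library but come from 1 fit with a shared spread, called 9 genes in the same direction. These are 9 of the 18 called with PBS and 75.0% of the 12 called with DEX. For all genes those shares were 74.3% and 61.9%. The 9 are Stab1, Fcgr2b, Clec4g, Oit3, Dnase1l3, Ehd3, Cdh5 and Eng, all lower in hypoxia, and Flt1, higher. In a fit of only the compared groups, the calls with PBS of Stab1 and Oit3 were lost (edgeR adjusted p = 0.0512 and 0.0655).

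DEX in normoxia changed 19 of the 36 genes within 2 h of injection, 10 of them higher and 9 lower. The background was 9.38% of genes higher and 7.4% lower. With library size alone in place of TMM the split was 6 higher and 12 lower. Sinusoidal genes gave 5 higher and 5 lower, vascular genes 5 higher and 4 lower, and the medians were -0.03 and 0.10. In hypoxia DEX raised 5 genes and lowered 8, against 6.13% and 7.05% of all genes. Of these, 4 higher and 4 lower were sinusoidal, and 1 higher and 4 lower were vascular.

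All 13 genes called for DEX in hypoxia were also called in normoxia in the same direction, and they are 68.4% of the 19 called there. The 2 comparisons share no library, but both come from 1 fit in which all groups share an estimate of the spread. In a fit of only the compared groups, the calls in hypoxia of Oit3, Gpr182, Bmp2 and Nos3 were lost (edgeR adjusted p = 0.0506 to 0.1). Over all genes the shared calls in the same direction made up 44.1% of those in normoxia and 56.1% of those in hypoxia. Lyve1, Oit3, Ehd3, Maf and Nos3 were higher under both conditions. Gpr182, Gata4, Bmp2, Wnt9b, Kdr, Egfl7, Sox18 and Cldn5 were lower under both.

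**Figure D2:**
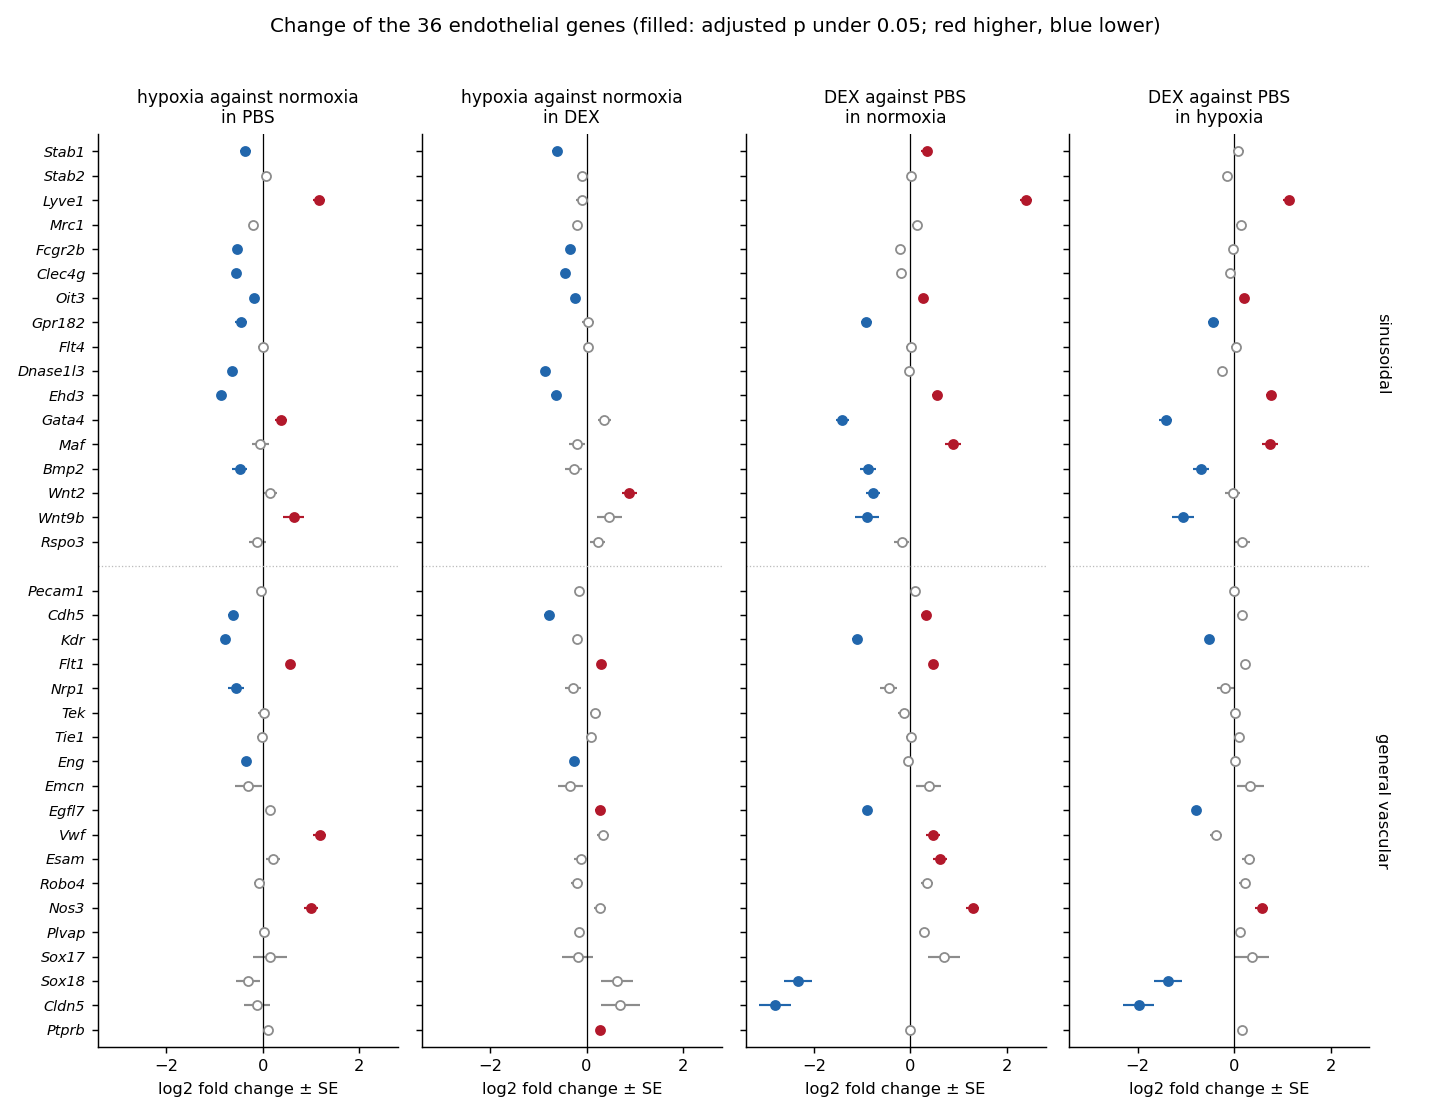
Log2 fold change (x axis) with its SE (bars) for each of the 36 genes (rows, sinusoidal above, general vascular below) in the comparisons of oxygen and of DEX. Filled points passed an adjusted p under 0.05, red higher and blue lower, open points did not. Lyve1 reaches 2.40 under DEX in normoxia and Cldn5 falls to -2.80, while Stab2, Flt4, Pecam1, Tek and Tie1 have open points in every column.

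Among the scavenger and lectin receptors, Lyve1 had the widest range. It encodes a hyaluronan receptor of sinusoidal and lymphatic endothelium (ENSMUSG00000030787, chr7:110850607-110863239 on the minus strand, mm10). Its level was 11.1, 9.79 and 11.1 CPM in normoxia with PBS, and 52.1, 65.9 and 50.2 CPM in normoxia with DEX. In hypoxia it was 20.8, 24.2 and 27.1 CPM with PBS, and 54.7, 51.6 and 50.8 CPM with DEX. The untreated normoxic libraries were the lowest, the hypoxic PBS libraries lay between, and both DEX groups overlapped at the top. Hypoxia raised Lyve1 by 1.17 ± 0.12 (edgeR adjusted p = 1.41e-05) on the log2 scale in PBS mice. DEX raised it by 2.40 ± 0.12 in normoxia, or 5.27-fold (edgeR adjusted p = 4.66e-08), and by 1.13 ± 0.11 in hypoxia (edgeR adjusted p = 3.53e-05). Between the DEX groups hypoxia made a difference of -0.10 (edgeR adjusted p = 0.489).

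Clec4g and Fcgr2b went the other way with oxygen and showed no call for DEX. In normoxia DEX gave -0.19 for Clec4g (edgeR adjusted p = 0.0891) and -0.22 for Fcgr2b (edgeR adjusted p = 0.0751), with separate groups. These changes were called under 3 and 5 of 20 alternatives. Clec4g encodes a C-type lectin known as LSECtin. It was 61.3, 59.6 and 54.4 CPM in normoxia with PBS, 52.0, 51.1 and 50.7 with DEX, 43.3, 39.1 and 37.1 in hypoxia with PBS, and 37.2, 36.9 and 38.6 with DEX. Every hypoxic library was below every normoxic one, and hypoxia changed Clec4g by -0.55 ± 0.07 (edgeR adjusted p = 8.07e-05) with PBS and by -0.45 ± 0.07 (edgeR adjusted p = 0.000271) with DEX. Fcgr2b encodes the inhibitory IgG receptor with which sinusoidal cells remove small immune complexes. It was 65.0, 70.8 and 64.6 CPM in normoxia with PBS, 55.8, 62.8 and 53.2 with DEX, 48.7, 41.7 and 47.1 in hypoxia with PBS, and 46.3, 44.0 and 44.9 with DEX. The hypoxic libraries again lay below all normoxic ones, with changes of -0.54 ± 0.08 with PBS (edgeR adjusted p = 0.000226) and -0.35 ± 0.08 with DEX (edgeR adjusted p = 0.00369).

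Stab1 and Stab2 encode the stabilins, the large scavenger receptors for hyaluronan and modified proteins, and they differed in their calls. Stab1 was 69.4, 62.0 and 58.7 CPM in normoxia with PBS, 79.6, 84.0 and 77.3 with DEX, 58.5, 43.7 and 46.2 in hypoxia with PBS, and 54.8, 47.6 and 55.5 with DEX. Normoxia with DEX was the highest group, apart from the rest. Hypoxia changed Stab1 by -0.36 ± 0.11 with PBS (edgeR adjusted p = 0.0189) and by -0.61 ± 0.11 with DEX (edgeR adjusted p = 0.000506), and DEX raised it in normoxia by 0.34 ± 0.11 (edgeR adjusted p = 0.0392). The first of these calls was lost without hypoxia with PBS replicate 2 or 3, or normoxia with PBS replicate 1 (edgeR adjusted p = 0.07 to 0.0799). The DEX call was lost without any 1 of 7 libraries: hypoxia with DEX replicates 1 and 3, each of the normoxia with DEX replicates, and normoxia with PBS replicates 2 and 3 (edgeR adjusted p = 0.0656 to 0.143). With library size alone it was 0.19 and not called, and with hypoxia with DEX replicates 1 and 3 summed it was not called either. Stab2 passed the threshold in no comparison, with 98.6 ± 7.95 CPM in normoxia with PBS, 103 ± 7.38 in hypoxia with PBS and 93.8 ± 10.1 in hypoxia with DEX (SD, n = 3), and a highest value of 103 CPM in normoxia with DEX. Mrc1, the mannose receptor, had 82.8 ± 9.96, 90.8 ± 10.3, 72.1 ± 1.25 and 79.5 ± 2.18 CPM (SD, n = 3) and no call.

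Stab1, Fcgr2b, Mrc1, Maf and Nrp1 are also expressed by macrophages, and Rspo3 and Nrp1 by stellate cells. The markers of Kupffer cells (liver macrophages) moved with oxygen. Of all genes 18.9% were higher and 16.8% lower in hypoxia with PBS. Of 15 Kupffer cell markers 0 were higher and 13 lower there, with a median of -1.24. With DEX, where 22.2% of all genes were lower, 14 of the 15 markers were. Their summed level was 701 to 939 CPM in normoxia with PBS, 816 to 1150 with DEX, 424 to 453 in hypoxia with PBS and 424 to 462 with DEX. None of the 15 was at 0 in any library, and Clec4f, their defining gene, fell by 2.13 in PBS mice. The part of these cells in the oxygen values of Stab1, Fcgr2b and Nrp1 was not tested. For DEX, 1 of the 15 was higher and 0 lower in normoxia, against 9.38% and 7.4% of all genes. In hypoxia 0 were higher and 1 lower, against 6.13% and 7.05%.

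Of the other sinusoidal genes, Ehd3 and Dnase1l3 had the largest oxygen differences. Ehd3 encodes a membrane-trafficking protein of the EHD family (chr17:73804134-73832094, plus strand). It was 103, 102 and 102 CPM in normoxia with PBS, 142, 163 and 144 with DEX, 62.4, 58.9 and 47.8 in hypoxia with PBS, and 94.2, 99.0 and 94.2 with DEX. Hypoxia changed it by -0.86 ± 0.09 with PBS (edgeR adjusted p = 1.85e-05) and by -0.64 ± 0.09 with DEX (edgeR adjusted p = 0.000105). DEX raised it by 0.55 ± 0.09 in normoxia (edgeR adjusted p = 0.000765) and by 0.76 ± 0.09 in hypoxia (edgeR adjusted p = 0.000141). No pair of groups overlapped, and hypoxia with DEX lay just under untreated normoxia.

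Dnase1l3 encodes a secreted DNase that degrades chromatin in the blood. It was called for oxygen and not, in the main fit, for DEX. It was 64.0, 68.5 and 63.9 CPM in normoxia with PBS, 60.1, 70.6 and 61.6 with DEX, 39.6, 45.3 and 42.4 in hypoxia with PBS, and 35.3, 37.9 and 33.1 with DEX. All 6 hypoxic libraries were below all 6 normoxic ones, with a change of -0.63 ± 0.08 with PBS (edgeR adjusted p = 8.71e-05) and -0.86 ± 0.08 with DEX (edgeR adjusted p = 5.47e-06). DEX in hypoxia gave -0.26 (edgeR adjusted p = 0.0541), with separate groups, and this was called under 5 of 20 alternatives.

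Gpr182, a scavenging receptor for chemokines, was lower after DEX. Its level was 39.8, 38.5 and 32.6 CPM in normoxia with PBS, 17.9, 21.5 and 19.4 with DEX, 31.0, 22.1 and 27.7 in hypoxia with PBS, and 20.5, 18.5 and 21.0 with DEX. The DEX libraries of both oxygen levels overlapped each other and lay below both PBS groups. DEX changed Gpr182 by -0.91 ± 0.12 in normoxia (edgeR adjusted p = 0.000122) and by -0.43 ± 0.12 in hypoxia (edgeR adjusted p = 0.0348), and hypoxia changed it by -0.45 ± 0.12 in PBS mice (edgeR adjusted p = 0.00957). In hypoxia the DEX call was lost without any 1 of hypoxia with DEX replicates 1, 2 and 3, hypoxia with PBS replicates 1 and 3 and normoxia with DEX replicate 3 (edgeR adjusted p = 0.0607 to 0.124). It was also lost with hypoxia with DEX replicates 1 and 3 summed, and was -0.23 without both libraries that stood apart. An exon of Gpr182 overlaps Zbtb39 on the opposite strand, and the strand setting of the counting is not given in the sources used here.

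Oit3, a zona pellucida domain gene used as a sinusoidal marker, showed small changes with little spread. It was 43.8, 41.0 and 42.5 CPM in normoxia with PBS, 48.6, 53.5 and 50.5 with DEX, 38.6, 36.9 and 36.9 in hypoxia with PBS, and 44.0, 41.6 and 44.1 with DEX. DEX raised it by 0.26 in normoxia (edgeR adjusted p = 0.00988) and 0.21 in hypoxia (edgeR adjusted p = 0.0465), and hypoxia changed it by -0.18 with PBS (edgeR adjusted p = 0.042) and -0.23 with DEX (edgeR adjusted p = 0.00867). Both DEX calls were lost with library size alone, at 0.11 and 0.12, and that in hypoxia also with hypoxia with DEX replicates 1 and 3 summed. All 4 calls were lost when certain libraries were left out. That of DEX in normoxia was lost without normoxia with DEX or with PBS replicate 2 (edgeR adjusted p = 0.052 to 0.0618), and that of hypoxia with DEX without replicate 2 of either DEX group (edgeR adjusted p = 0.055 to 0.0622). The call of hypoxia with PBS was lost without any normoxia with PBS library or hypoxia with PBS replicate 2 or 3 (edgeR adjusted p = 0.056 to 0.127). That of DEX in hypoxia was lost without any 1 of 8 libraries, and was kept without hypoxia with DEX replicate 2, hypoxia with PBS replicate 1 and normoxia with DEX replicates 2 and 3 (edgeR adjusted p = 0.0541 to 0.143 where lost).

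The transcription factors moved in opposite directions after DEX. Gata4 is the master regulator of sinusoidal identity in mice, where its loss turns sinusoids into ordinary capillaries (chr14:63198922-63271692, minus strand). Its level was 16.0, 19.8 and 22.7 CPM in normoxia with PBS, 7.43, 6.67 and 7.9 with DEX, 21.3, 27.5 and 27.2 in hypoxia with PBS, and 9.11, 9.35 and 9.92 with DEX. No DEX library was above 9.92 CPM and no PBS library was below 16.0 CPM. DEX changed Gata4 by -1.41 ± 0.14 in normoxia (edgeR adjusted p = 1.03e-05) and by -1.42 ± 0.14 in hypoxia (edgeR adjusted p = 2.48e-05). Hypoxia raised it by 0.38 ± 0.13 in PBS mice (edgeR adjusted p = 0.0354), with overlapping groups. That call was lost without hypoxia with DEX replicate 1, hypoxia with PBS replicate 2 or 3, or normoxia with PBS replicate 1 or 2 (edgeR adjusted p = 0.0502 to 0.148), and with library size alone (0.25). Among DEX mice hypoxia gave 0.37 (edgeR adjusted p = 0.05), with separate groups. This was not called in the main fit but was called under 10 of 20 alternatives. Bulk liver RNA does not show which cells the Gata4 RNA came from.

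Maf, which encodes c-Maf, a factor of sinusoidal differentiation that macrophages and lymphocytes also express, rose with DEX. It was 38.5, 34.6 and 31.3 CPM in normoxia with PBS, 52.3, 78.6 and 62.9 with DEX, 39.3, 25.9 and 35.2 in hypoxia with PBS, and 57.4, 50.9 and 60.9 with DEX. The DEX libraries were above all PBS libraries, with changes of 0.89 ± 0.17 in normoxia (edgeR adjusted p = 0.00307) and 0.75 ± 0.17 in hypoxia (edgeR adjusted p = 0.0129). Without hypoxia with DEX replicate 3 the latter stood at an edgeR adjusted p of 0.0501.

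Sox18, a SOX-F factor of vascular and lymphatic development (chr2:181669836-181671640, minus strand), was among the genes that fell most. Its level was 5.56, 6.17 and 8.64 CPM in normoxia with PBS, 1.3, 1.58 and 1.12 with DEX, 5.85, 5.7 and 4.83 in hypoxia with PBS, and 2.72, 0.874 and 2.47 with DEX. All PBS libraries were above all DEX libraries. The change was -2.32 ± 0.29 in normoxia (edgeR adjusted p = 8.53e-05) and -1.37 ± 0.29 in hypoxia (edgeR adjusted p = 0.00659). Between the DEX groups hypoxia changed Sox18 by 0.64 (edgeR adjusted p = 0.13). Without hypoxia with DEX replicate 2, Sox18 changed by 0.96 and was called (edgeR adjusted p = 0.00857). Its relative Sox17, of arterial endothelium, was not called in any comparison, at 2.06 ± 0.426, 3.35 ± 1.14, 2.27 ± 0.985 and 2.91 ± 0.868 CPM (SD, n = 3).

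Among the ligands that endothelium sends to hepatocytes, Bmp2, Wnt2 and Wnt9b were lower after DEX in normoxia. Bmp2 drives hepcidin synthesis in hepatocytes. It was 22.8, 21.5 and 22.6 CPM in normoxia with PBS, 13.3, 11.1 and 11.9 with DEX, 21.3, 13.8 and 12.6 in hypoxia with PBS, and 9.65, 11.5 and 8.98 with DEX. Hypoxia with PBS replicate 1 was far above the other libraries of its group. DEX changed Bmp2 by -0.88 ± 0.16 in normoxia (edgeR adjusted p = 0.0021) and by -0.68 ± 0.17 in hypoxia (edgeR adjusted p = 0.0204), and hypoxia changed it by -0.48 ± 0.16 in PBS mice (edgeR adjusted p = 0.0352). Without hypoxia with PBS replicate 1 these last changes became -0.38 and -0.77. The DEX call in hypoxia was lost without that library or hypoxia with DEX replicate 1 or 3 (edgeR adjusted p = 0.0502 to 0.111), and with those DEX libraries summed. The oxygen call was lost without hypoxia with PBS replicate 2 or 3 or any normoxia with PBS library (edgeR adjusted p = 0.0657 to 0.136).

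Wnt2 and Wnt9b are the Wnt ligands of endothelium around the central vein, and Rspo3 encodes an R-spondin that strengthens their signal. Wnt2 was 4.93, 4.84 and 4.88 CPM in normoxia with PBS, 3.12, 2.78 and 2.67 with DEX, 5.44, 5.48 and 5.3 in hypoxia with PBS, and 4.44, 5.07 and 6.35 with DEX. Only normoxia with DEX lay below the other groups. DEX changed Wnt2 in normoxia by -0.77 ± 0.15 (edgeR adjusted p = 0.00294), and in hypoxia the change was -0.03 (edgeR adjusted p = 0.965). The difference between these responses was 0.75 (edgeR adjusted p = 0.121). Wnt2 was higher in hypoxia than in normoxia among DEX mice, by 0.89 ± 0.15 (edgeR adjusted p = 0.000439).

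Wnt9b, with 11 to 36 counts per library, was 1.33, 1.27 and 1.85 CPM in normoxia with PBS, 0.623, 0.912 and 0.808 with DEX, 1.93, 2.56 and 2.42 in hypoxia with PBS, and 1.12, 1.05 and 1.1 with DEX. The DEX libraries were below the PBS libraries of the same oxygen level. DEX changed Wnt9b by -0.89 ± 0.25 in normoxia (edgeR adjusted p = 0.0241) and by -1.06 ± 0.23 in hypoxia (edgeR adjusted p = 0.00941), and hypoxia raised it by 0.64 ± 0.22 in PBS mice (edgeR adjusted p = 0.0393). In normoxia the DEX call was lost without normoxia with DEX replicate 1 or 3 or normoxia with PBS replicate 3 (edgeR adjusted p = 0.0544 to 0.0954). The oxygen call was lost without any 1 of 7 libraries, namely hypoxia with DEX replicates 1 and 3, hypoxia with PBS replicates 2 and 3, normoxia with DEX replicate 3 and normoxia with PBS replicates 1 and 2 (edgeR adjusted p = 0.0519 to 0.141), with library size alone, and with hypoxia with DEX replicates 1 and 3 summed (edgeR adjusted p = 0.0537). Rspo3 had no call, at 5.12 ± 0.203, 4.49 ± 0.488, 4.74 ± 0.903 and 5.26 ± 0.767 CPM (SD, n = 3).

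Hepatocyte genes that depend on these Wnt signals were measured in the same libraries. Of 14 such genes, DEX lowered 5 in normoxia and 5 in hypoxia, where 7.4% and 7.05% of all genes were lower, among them Lgr5, the R-spondin receptor, with changes of -2.10 (edgeR adjusted p = 0.000208) and -1.84 (edgeR adjusted p = 0.000794), while Glul was raised in normoxia by 0.38 (edgeR adjusted p = 0.00681; 0.23 with library size alone).

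The VEGF receptors were split. Kdr encodes VEGF receptor 2, the main signalling receptor for VEGF-A (chr5:75932827-75978458, minus strand). Its level was 84.7, 78.1 and 73.6 CPM in normoxia with PBS, 34.2, 40.1 and 35.4 with DEX, 52.2, 42.1 and 42.9 in hypoxia with PBS, and 30.6, 32.8 and 32.8 with DEX. Untreated normoxia stood above every other library, and both DEX groups were below both PBS groups. Hypoxia changed Kdr by -0.78 ± 0.09 in PBS mice (edgeR adjusted p = 4.19e-05). DEX changed it by -1.11 ± 0.09 in normoxia, or 2.15-fold (edgeR adjusted p = 2.87e-06), and by -0.51 ± 0.09 in hypoxia (edgeR adjusted p = 0.00295).

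Flt1, VEGF receptor 1, which binds VEGF-A tightly and limits its signal, was higher in 3 of the comparisons. It was 20.8, 19.8 and 22.9 CPM in normoxia with PBS, 30.6, 29.6 and 28.2 with DEX, 28.6, 32.5 and 32.4 in hypoxia with PBS, and 36.8, 36.2 and 35.7 with DEX. Untreated normoxia was the lowest group and hypoxia with DEX the highest. The changes were 0.56 ± 0.08 for hypoxia with PBS (edgeR adjusted p = 0.000136), 0.48 ± 0.08 for DEX in normoxia (edgeR adjusted p = 0.000608) and 0.30 ± 0.08 for hypoxia with DEX (edgeR adjusted p = 0.00644). DEX in hypoxia gave 0.22 (edgeR adjusted p = 0.0791).

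Flt4, VEGF receptor 3, was at 33.7 ± 1.79, 33.8 ± 2.71, 33.7 ± 3.36 and 34.4 ± 2.03 CPM (SD, n = 3) and had no call. Nrp1 encodes neuropilin 1, a VEGF co-receptor. It was 77.6, 65.7 and 60.5 CPM in normoxia with PBS, 51.5, 46.5 and 51.4 with DEX, 36.7, 44.7 and 57.5 in hypoxia with PBS, and 36.6, 50.2 and 36.3 with DEX. The hypoxic libraries spread widely, and hypoxia changed Nrp1 by -0.55 ± 0.17 in PBS mice (edgeR adjusted p = 0.0226). That call was lost without hypoxia with PBS replicate 1 or 2 or normoxia with PBS replicate 1 (edgeR adjusted p = 0.0555 to 0.0829). DEX in normoxia changed Nrp1 by -0.45 (edgeR adjusted p = 0.0919), with separate groups, and this was called under 6 of 20 alternatives.

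The angiopoietin receptor gene Tek and its relative Tie1 passed in no comparison. Tek had 21.4 ± 1.35, 19.4 ± 0.978, 21.6 ± 3.79 and 21.9 ± 0.993 CPM, and Tie1 had 17.3 ± 0.892, 17.4 ± 1.95, 17.2 ± 1.21 and 18.5 ± 1.5 CPM (SD, n = 3). Ptprb, a vascular phosphatase that restrains the receptor encoded by Tek, had the highest CPM of the vascular genes. It was 158, 149 and 150.0 CPM in normoxia with PBS, 143, 160.0 and 154 with DEX, 157, 169 and 167 in hypoxia with PBS, and 182, 187 and 185 with DEX. The last group stood above the rest, and Ptprb was higher in hypoxia than in normoxia among DEX mice by 0.28 ± 0.07 (edgeR adjusted p = 0.00437).

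The ligands of these receptors were taken with other endothelial signalling genes, of which 24 of 29 were tested. Hypoxia raised 1 and lowered 4 of the 24 in PBS mice, where 18.9% of all genes were higher and 16.8% lower, and raised 3 and lowered 6 in DEX mice, where 20.7% and 22.2% were. DEX raised 4 and lowered 7 in normoxia, against 9.38% and 7.4% of all genes, and raised 2 and lowered 9 in hypoxia, against 6.13% and 7.05%. Vegfa, the ligand of Kdr and Flt1 that hepatocytes make, was 177, 216 and 258 CPM in normoxia with PBS, 159, 156 and 157 with DEX, 196, 248 and 248 in hypoxia with PBS, and 142, 172 and 146 with DEX. The DEX libraries were below the PBS libraries, with changes of -0.46 in normoxia (edgeR adjusted p = 0.0247) and -0.59 in hypoxia (edgeR adjusted p = 0.00946), and the oxygen change with PBS was 0.08 (edgeR adjusted p = 0.641). The DEX call in normoxia was lost without any normoxia with DEX library or normoxia with PBS replicate 2 or 3 (edgeR adjusted p = 0.0619 to 0.107), and that in hypoxia without hypoxia with DEX replicate 1 (edgeR adjusted p = 0.0525). Vegfb, a ligand of Flt1, fell by 1.17 in hypoxia with PBS (edgeR adjusted p = 5.59e-05), and its change was -1.68 with DEX (edgeR adjusted p = 3.86e-06). Angpt2, a ligand of Tek, was at 0.511 to 1.26 CPM in all libraries, with no call.

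Of the junction and surface genes, Cldn5 had the largest change of the list. It encodes claudin 5, the endothelial tight junction protein (ENSMUSG00000041378, chr16:18776847-18778262, plus strand). It was 4.29, 5.4 and 4.09 CPM in normoxia with PBS, 0.68, 0.663 and 0.622 with DEX, 4.62, 4.31 and 3.76 in hypoxia with PBS, and 1.54, 0.262 and 1.21 with DEX. No DEX library was above 1.54 CPM and no PBS library was under 3.76 CPM. DEX changed Cldn5 by -2.80 ± 0.33 in normoxia, or 6.96-fold (edgeR adjusted p = 4.68e-05), and by -1.98 ± 0.32 in hypoxia, or 3.93-fold (edgeR adjusted p = 0.00113). The lowest library held 3 counts of Cldn5 and the highest 106. Between the DEX groups hypoxia changed Cldn5 by 0.70 (edgeR adjusted p = 0.171). Without hypoxia with DEX replicate 2 that change was 1.08 and was called (edgeR adjusted p = 0.00665).

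RefSeq promoter windows on GRCm38.p6, of 250 bases before to 50 bases after a start site, were matched by symbol for 19 of the 36 genes. They were searched on both strands for a glucocorticoid response element (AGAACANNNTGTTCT), its 6-base core TGTTCT, the hypoxia response core ACGTG, the GATA motif AGATAA and the ETS motif CAGGAAG, each allowed to overlap another. The full glucocorticoid element was in none of the 19 and in 0.00913% of all 32851 windows. The core was in 3 of the 21 windows of these genes (Egfl7, Fcgr2b and Tek) and in 19.0% of all. ACGTG was in that of Ehd3 and in 19.6% of all, AGATAA in that of Tek and in 11.2% of all, and CAGGAAG in those of Egfl7, Ehd3, Emcn, Mrc1, Robo4 and Stab1 and in 13.3% of all. A match is a string of letters and not a shown site. The 250 bases before the start are printed for genes that DEX lowered at both oxygen levels, 5′ to 3′ on the strand of the gene, with matched letters in capitals. They are chr16:18776597-18776846 (plus strand) for Cldn5, chr5:75978456-75978705 (minus strand) for Kdr, chr11:103749822-103750071 (minus strand) for Wnt9b and, for the second of its 3 start sites, chr2:26583615-26583864 (plus strand) for Egfl7.
Cldn5: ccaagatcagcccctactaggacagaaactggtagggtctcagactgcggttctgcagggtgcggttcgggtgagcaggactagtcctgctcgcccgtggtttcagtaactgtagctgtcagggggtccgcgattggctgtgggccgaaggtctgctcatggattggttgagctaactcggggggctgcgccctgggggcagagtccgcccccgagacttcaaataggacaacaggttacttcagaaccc
Kdr: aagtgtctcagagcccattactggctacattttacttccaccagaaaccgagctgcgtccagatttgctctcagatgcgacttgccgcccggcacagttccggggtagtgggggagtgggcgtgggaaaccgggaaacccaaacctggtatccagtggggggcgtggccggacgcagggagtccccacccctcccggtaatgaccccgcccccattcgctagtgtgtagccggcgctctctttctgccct
Wnt9b: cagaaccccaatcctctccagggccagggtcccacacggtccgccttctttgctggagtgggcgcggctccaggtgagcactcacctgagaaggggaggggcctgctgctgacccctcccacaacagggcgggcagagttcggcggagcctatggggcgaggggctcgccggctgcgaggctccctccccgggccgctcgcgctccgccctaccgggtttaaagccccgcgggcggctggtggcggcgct
Egfl7: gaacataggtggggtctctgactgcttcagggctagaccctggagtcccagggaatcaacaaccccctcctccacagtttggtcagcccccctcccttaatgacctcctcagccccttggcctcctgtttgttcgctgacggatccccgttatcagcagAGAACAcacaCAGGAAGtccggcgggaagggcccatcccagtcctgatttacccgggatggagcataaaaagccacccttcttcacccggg
The windows of Cldn5, Kdr and Wnt9b hold none of the 5 motifs, and that of Egfl7 holds the glucocorticoid core, read on the opposite strand, followed by the ETS motif. Of the 3 Egfl7 windows, only the printed one holds that core.

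Cdh5, VE-cadherin, the adhesion molecule of endothelial junctions, was lower in hypoxia. It was 43.8, 49.8 and 43.1 CPM in normoxia with PBS, 50.2, 65.4 and 54.5 with DEX, 26.7, 30.3 and 31.9 in hypoxia with PBS, and 32.0, 32.6 and 34.5 with DEX. Every hypoxic library was below every normoxic one, with changes of -0.62 ± 0.10 with PBS (edgeR adjusted p = 0.000489) and -0.78 ± 0.10 with DEX (edgeR adjusted p = 5.76e-05). DEX in normoxia gave a call at 0.32 ± 0.10 (edgeR adjusted p = 0.0446) that was lost without any 1 of 8 libraries. It was kept without hypoxia with PBS replicates 1 and 3, normoxia with DEX replicate 1 and normoxia with PBS replicate 2 (edgeR adjusted p = 0.0545 to 0.217 where lost). Without normoxia with DEX replicate 2 the change was 0.19, and with library size alone it was 0.16 and not called. The call was also lost with hypoxia with DEX replicates 1 and 3 summed (edgeR adjusted p = 0.0645).

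Eng, endoglin, a co-receptor of the BMP9 pathway, was 78.0, 80.0 and 78.1 CPM in normoxia with PBS, 75.2, 79.3 and 75.2 with DEX, 57.1, 60.2 and 69.7 in hypoxia with PBS, and 62.7, 62.0 and 65.1 with DEX. The hypoxic libraries were below all normoxic ones, by -0.34 ± 0.07 with PBS (edgeR adjusted p = 0.00336) and -0.27 ± 0.07 with DEX (edgeR adjusted p = 0.00875). An exon of Eng overlaps Fpgs on the opposite strand, so the share of its reads that belong to Fpgs is uncertain. Esam, an adhesion molecule of tight junctions, was 11.9, 11.8 and 11.1 CPM in normoxia with PBS, 15.2, 21.5 and 16.9 with DEX, 11.9, 14.5 and 14.2 in hypoxia with PBS, and 15.4, 19.8 and 14.8 with DEX. It rose after DEX in normoxia by 0.62 ± 0.14 (edgeR adjusted p = 0.00769), with separate groups.

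The other surface genes gave no call in the main fit. Pecam1, the general endothelial adhesion molecule CD31, had 25.9 ± 1.19, 27.7 ± 1.28, 25.3 ± 1.35 and 25.1 ± 0.858 CPM (SD, n = 3). Plvap, the diaphragm protein of endothelial pores, had 46.8 ± 4.25, 56.9 ± 3.51, 47.4 ± 6.0 and 51.4 ± 1.05 CPM (SD, n = 3). Robo4, a vascular Roundabout receptor, had 16.1 ± 1.72, 20.5 ± 2.05, 15.3 ± 0.504 and 18.0 ± 2.81 CPM, and Emcn, a sialomucin of veins and capillaries, had 2.79 ± 0.55, 3.61 ± 0.754, 2.3 ± 0.879 and 2.91 ± 0.496 CPM (SD, n = 3). DEX in normoxia brought Plvap and Robo4 to an edgeR adjusted p of 0.0549 and 0.058, and these changes were called under 6 and 4 of 20 alternatives. Robo4 was also called lower in hypoxia with DEX under 2 of 20.

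Vwf, Nos3 and Egfl7 make up the secreted and vasoactive genes. Vwf encodes von Willebrand factor, the platelet-binding protein of larger vessels (chr6:125546774-125686679, plus strand). It was 9.97, 8.1 and 10.3 CPM in normoxia with PBS, 13.9, 11.8 and 13.6 with DEX, 18.4, 25.6 and 20.3 in hypoxia with PBS, and 15.3, 17.6 and 17.0 with DEX. The 4 groups did not overlap. Hypoxia raised Vwf by 1.18 ± 0.13 in PBS mice, or 2.27-fold (edgeR adjusted p = 3.03e-05), and DEX raised it by 0.47 ± 0.14 in normoxia (edgeR adjusted p = 0.0278). In hypoxia DEX gave -0.37 (edgeR adjusted p = 0.0835). Among DEX mice hypoxia gave 0.34 (edgeR adjusted p = 0.051), not called in the main fit but called under 7 of 20 alternatives. The DEX call in normoxia was lost without normoxia with DEX replicate 1 or 3 or normoxia with PBS replicate 2 (edgeR adjusted p = 0.0873 to 0.13), and with library size alone.

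Nos3 encodes endothelial nitric oxide synthase (chr5:24364810-24384474, plus strand). It was 4.75, 4.59 and 4.09 CPM in normoxia with PBS, 10.4, 11.4 and 10.9 with DEX, 9.35, 9.86 and 7.79 in hypoxia with PBS, and 12.1, 15.7 and 12.3 with DEX. Untreated normoxia was lowest, and no pair of groups overlapped. Hypoxia raised Nos3 2.0-fold in PBS mice (SE 0.14 on the log2 scale, edgeR adjusted p = 0.00013). DEX raised it by 1.29 ± 0.13 in normoxia (edgeR adjusted p = 1.83e-05) and by 0.57 ± 0.13 in hypoxia (edgeR adjusted p = 0.0103). The latter call was lost without hypoxia with PBS replicate 3 (edgeR adjusted p = 0.0534). Exons of Nos3 overlap Atg9b on the opposite strand.

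Egfl7, a secreted matrix protein of growing vessels whose gene also carries a microRNA, was lower after DEX. It was 17.2, 18.0 and 16.3 CPM in normoxia with PBS, 9.75, 9.12 and 9.02 with DEX, 18.5, 17.9 and 21.5 in hypoxia with PBS, and 10.8, 11.6 and 11.3 with DEX. The DEX groups were apart from the PBS groups, by -0.89 ± 0.09 in normoxia (edgeR adjusted p = 1.83e-05) and -0.78 ± 0.09 in hypoxia (edgeR adjusted p = 0.000138). Among DEX mice it was higher in hypoxia by 0.28 ± 0.10 (edgeR adjusted p = 0.0321), a call lost without hypoxia with DEX replicate 2 or 3 or normoxia with DEX replicate 2 or 3 (edgeR adjusted p = 0.0588 to 0.0749). That call was also lost with library size alone (0.21, edgeR adjusted p = 0.149), with DESeq2 (DESeq2 adjusted p = 0.0724) and without the count filter (edgeR adjusted p = 0.0799). Exons of Egfl7 overlap Agpat2 on the opposite strand.

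**Figure D3:**
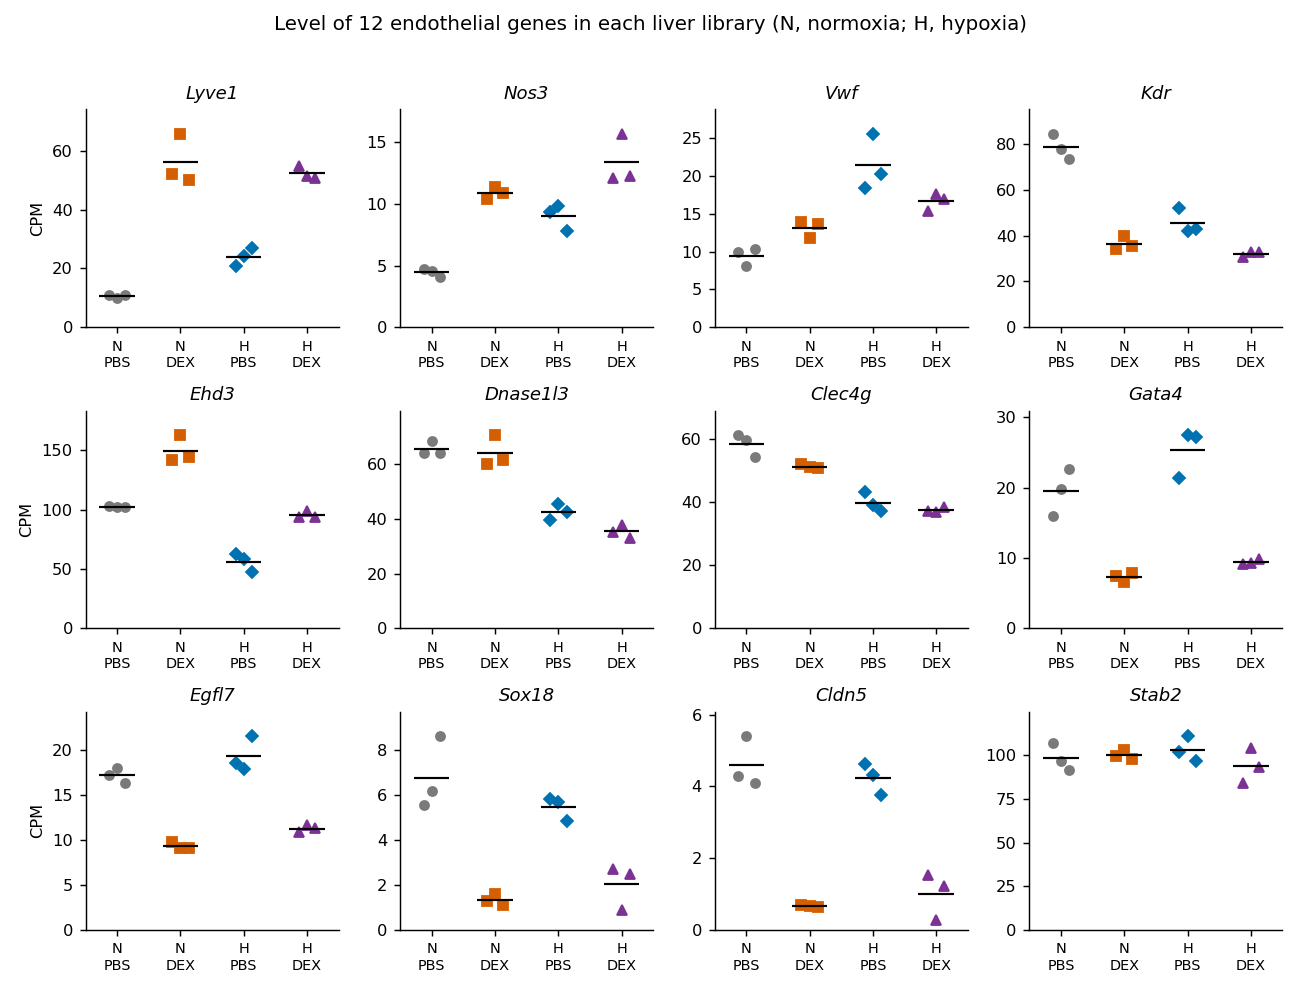
CPM (y axes, linear, from 0) of 12 of the genes in each library, by group (x axis; N normoxia, H hypoxia). Points are libraries and bars are means of 3. Lyve1 and Nos3 are lowest in normoxia with PBS, Gata4, Egfl7, Sox18 and Cldn5 are lower in both DEX groups than in both PBS groups, Dnase1l3 and Clec4g are lower in both hypoxic groups, and Stab2 overlaps throughout.

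The interaction asks whether the DEX response differed between oxygen levels, as the response in hypoxia minus that in normoxia. Of all genes 0.325% were higher and 0.996% lower in this test, and of the 36 genes 1 was higher and 2 were lower. With size factors of the RLE method the split was 1 and 1. Lyve1 differed by -1.27 ± 0.16 (edgeR adjusted p = 0.00202), a DEX rise of 5.27-fold in normoxia against 2.18-fold in hypoxia, and was called under every alternative tried. Kdr differed by 0.59 ± 0.13 (edgeR adjusted p = 0.047), a fall of 2.15-fold against 1.43-fold. Vwf differed by -0.84 ± 0.19 (edgeR adjusted p = 0.0461), from a rise of 0.47 to -0.37. The call of Kdr was kept only without hypoxia with PBS replicate 1, normoxia with DEX replicate 2 or normoxia with PBS replicate 3, and was lost without any other library (edgeR adjusted p = 0.0715 to 0.115). That of Vwf was kept only without hypoxia with PBS replicate 1 (edgeR adjusted p = 0.0517 to 0.156 without any of the other 11). With the replicate number as a block, or hypoxia with DEX replicates 1 and 3 summed, Lyve1 alone was called. Nos3 gave -0.72 (edgeR adjusted p = 0.0839).

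**Figure D4:**
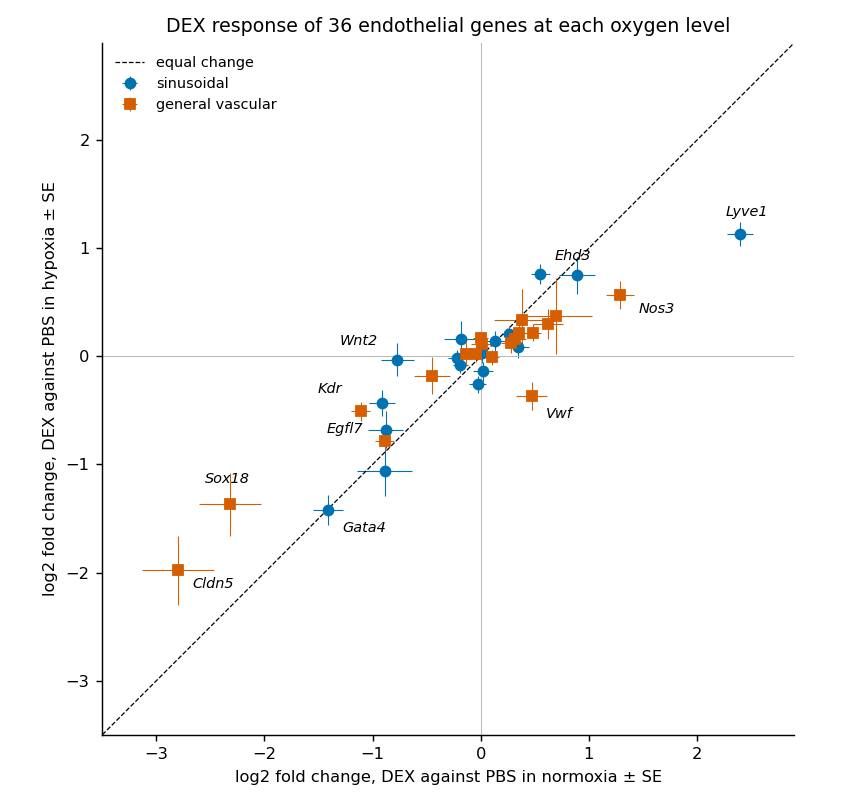
Log2 fold change of DEX against PBS in normoxia (x axis) and in hypoxia (y axis) with SE bars for the 36 genes. Circles are sinusoidal and squares general vascular genes, and the dashed line marks equal change. Lyve1 (2.40 and 1.13) and Vwf (0.47 and -0.37) lie below the line, Kdr (-1.11 and -0.51) lies above it, and Gata4 (-1.41 and -1.42) lies on it.

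Across the 5 comparisons of the main fit 25 of the 36 genes were called at least once, as were 59.5% of all tested genes. The other 11 were not called there: Stab2, Mrc1, Flt4, Rspo3, Pecam1, Tek, Tie1, Emcn, Robo4, Plvap and Sox17. Markers of other cell types give the context of these values. Of 14 stellate cell and fibroblast markers 7 were lower in hypoxia with PBS and 11 with DEX, where 16.8% and 22.2% of all genes were. The sum of these markers was 508 to 667 CPM in normoxia with PBS and 443 to 511 in hypoxia with PBS, ranges that overlap. None of the 14 was at 0 in any library. Hepatocyte markers summed to 123000 to 133000 CPM in normoxia with PBS, 146000 to 159000 with DEX, 129000 to 149000 in hypoxia with PBS and 138000 to 143000 with DEX. The part of a changed cell composition in the endothelial values was not tested.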

How the data were processed

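The authors deposited raw whole-number counts per gene for 12 mouse liver libraries, with no normalization. The reads were handled with featureCounts, Trimmomatic, DESeq2, HISAT2 2.0.4 and SAMtools on mm10, per the submitters' processing notes. What each tool did is not given in the sources used here, nor is the annotation or the strand setting. The kit was stranded and selects messenger RNA, per the labels' protocols, which call both oxygen arms the hypoxia group. That was taken as a mistake, since titles name normoxia. Groups were taken from the labels.

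Identifiers were mapped to symbols with the GENCODE annotation of GRCm38, which gave 54723 of 54838 a symbol. The model was fitted with edgeR 4.0.16 in R 4.3.3: filterByExpr on the groups (minimum count 10, minimum total 15), TMM scaling and a robust quasi-likelihood fit with 1 mean per group over 12 libraries and 8 residual degrees of freedom. In each comparison p-values were adjusted by Benjamini-Hochberg over the 13861 genes, with a threshold of 0.05. The fit was also run on simulated counts with the same spread for every gene, unlike the real data, so no conclusion on the real calls is drawn from it. Counts carry no molecular identifiers. Alternatives were RLE size factors, library size alone, DESeq2 1.42.0, a block for the replicate number, testing without the count filter, a fit of only the compared groups, leaving out each library, summing hypoxia with DEX replicates 1 and 3, and leaving out the libraries that stood apart.

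The members and lists were chosen with earlier results of these data known. Every member is accounted for, with values in every library for those called in at least 1 comparison. Of each other list, at most 4 called genes with the largest change in a comparison and at least 1 CPM in a group are named, plus some of a fixed few. Axin2, Icam1, Id1, Smad7 and Alb were also among the fixed genes, and their values are not given here. Genes with an exon in common with a neighbour are uncertain, since the strand setting is not known: beside those named in the results they are Stab1 (Nt5dc2), Stab2, Fcgr2b, Clec4g, Maf, Rspo3, Nrp1 and Sox17.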

Additional observations from a re-analysis of the deposited data

Results flagged for a closer look

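The DEX response of 3 genes differed between normoxia and hypoxia in a test of the difference itself (edgeR interaction, the response in hypoxia minus that in normoxia). Differences are on the log2 scale. Lyve1 differed by -1.27 (edgeR adjusted p = 0.00202). Kdr differed by 0.59 (edgeR adjusted p = 0.047). Vwf differed by -0.84 (edgeR adjusted p = 0.0461). The calls of Kdr and Vwf were lost when single libraries were left out, at adjusted p values up to 0.115 and 0.156. No outlier test of single genes was run within groups of 3 libraries.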

How the results depend on the processing

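Of 65 calls of the 36 genes over 5 comparisons, 45 were kept under all 20 alternatives of their comparison, 20 were lost under at least 1, and 0 reversed. Of 115 values without a call, 21 gained one under at least 1 alternative. With DESeq2 the calls of hypoxia with PBS were lost for Oit3, Gata4 and Wnt9b. Those of hypoxia with DEX for Egfl7 and of DEX in normoxia for Wnt9b were lost too, and Ptprb gained a call for DEX in hypoxia. With library size alone, which moved the median change of all genes by -0.129 for hypoxia with PBS and by -0.153 for DEX in normoxia, 8 calls were lost and 6 gained, and the genes higher after DEX in normoxia numbered 6 in place of 10. In a fit of only the compared groups, those higher after DEX in hypoxia numbered 3 in place of 5, and 3 to 5 when each library was left out in turn. In the interaction the 1 higher gene became 0 with hypoxia with DEX replicates 1 and 3 summed, 3 without both libraries that stood apart, and 0 to 1 when each library was left out. The 2 lower genes became 1 with RLE size factors, 1 with those replicates summed, and 1 to 2 when each library was left out. The causes were not tested. All groups enter the interaction, so it has no fit with only the compared groups.

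The replicate number was not taken to pair the samples: over 18 pairs of libraries with the same number, deviations from the group means correlated at -0.151 to 0.39, and 4 pairs were over 0.1. With the replicate block, 4 calls were lost and 2 gained, and the interaction held 0 higher and 1 lower gene.

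Among the other listed genes 85 of 206 calls were lost under at least 1 alternative, and 0 reversed. With 3 libraries a group, the changes of genes with few counts, such as Wnt9b, Cldn5, Sox17 and Emcn, have wide errors, and a gene without a call is not shown to be unchanged. Bulk liver RNA gives no cell counts.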

Other observations

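Other endothelial genes, outside the 36, were measured in the same libraries. Of 24 tested genes in a list of further endothelial markers, hypoxia with PBS raised 2 and lowered 5, where 18.9% of all genes were higher and 16.8% lower. Among DEX mice hypoxia raised 4 and lowered 7, where 20.7% and 22.2% of all genes were. Adam23, a surface protein without protease activity, rose from 18.6 ± 1.11 to 46.3 ± 5.19 CPM with PBS (SD, n = 3; log2 change 1.32, edgeR adjusted p = 1.77e-06) and from 22.2 ± 1.51 to 47.6 ± 4.93 CPM with DEX (SD, n = 3; log2 change 1.10, edgeR adjusted p = 3.67e-06). Aqp1, a water channel that bile duct cells also express, fell from 126 ± 6.23 to 77.0 ± 5.23 CPM in hypoxia with PBS (SD, n = 3; log2 change -0.71, edgeR adjusted p = 3.2e-05). Cavin1, a coat protein of caveolae, changed by -0.72 with PBS (edgeR adjusted p = 0.00161) and by -0.99 with DEX (edgeR adjusted p = 0.000136). Myct1, an endothelial membrane protein, was lower after DEX in normoxia, with a log2 change of -2.31 (edgeR adjusted p = 0.000134), from 3.05 ± 0.73 to 0.629 ± 0.218 CPM (SD, n = 3). In this list DEX raised 2 and lowered 4 in normoxia, against 9.38% and 7.4% of all genes, and raised 3 and lowered 3 in hypoxia, against 6.13% and 7.05%.

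Of 15 tested transcription factors of endothelium, DEX raised 3 and lowered 2 in normoxia, and raised 3 and lowered 3 in hypoxia, with the same shares of all genes as above, and the others had no call. Klf2, a factor that blood flow induces, was 6.32, 8.66 and 6.39 CPM in normoxia with PBS and 13.5, 22.4 and 17.3 with DEX, a rise of 1.32 (edgeR adjusted p = 0.000183). In hypoxia it was 7.37, 5.48 and 5.71 CPM with PBS and 7.93, 8.13 and 8.19 with DEX, a change of 0.38 (edgeR adjusted p = 0.234). The difference between these responses was -0.94 (edgeR adjusted p = 0.123). Foxo1, which hepatocytes also express, rose by 1.21 in normoxia (edgeR adjusted p = 0.000557) and by 1.28 in hypoxia (edgeR adjusted p = 0.000795). Sox7, the third SOX-F gene beside Sox17 and Sox18, changed by -1.83 in normoxia (edgeR adjusted p = 0.00299). Id3, a target of BMP signalling in several cell types, fell from 141 ± 27.7 to 22.6 ± 4.09 CPM in normoxia and from 111 ± 23.0 to 37.1 ± 1.91 CPM in hypoxia (SD, n = 3; log2 changes -2.64 and -1.58, edgeR adjusted p = 4.33e-06 and 0.000306). Jag1, a Notch ligand, rose by 1.21 in hypoxia with PBS (edgeR adjusted p = 0.00139). Among the adhesion genes of activated endothelium, Sele was at 2.96, 6.63 and 17.0 CPM in normoxia with PBS and at 0, 0 and 0.187 CPM with DEX, with a call (edgeR adjusted p = 0.0389) that was lost without any 1 of 8 libraries and kept without hypoxia with DEX replicate 2, hypoxia with PBS replicates 1 and 2 and normoxia with PBS replicate 1 (edgeR adjusted p = 0.0514 to 0.131 where lost). Vcam1 had no call in any comparison.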
